A study of Mus musculus with 51 samples.

Results

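The genes described here encode the synaptic vesicle release machinery of the presynaptic terminal. They were chosen by name, as a list of 48 genes, and all 48 were found among the 24564 gene rows of the deposited count table. They take 49 rows, because Rims1 has 2 rows, Rims1..1 and Rims1..2, that share 1 transcript accession, so how its reads were split between them is uncertain. The choice used no measured value of the table, although earlier results of these data were known when it was made.

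The study set mice labelled as mutants of Polycomb repressive complex 2 (PRC2) against wt mice, to examine what adult dopaminergic and serotonergic neurons express when the complex does or does not work. PRC2 methylates lysine 27 of histone H3 and keeps genes repressed. Midbrain dopaminergic (mDA) neurons came from the DatCreEed line, whose Cre is driven by the dopamine transporter gene, and serotonergic (5HT) neurons from the SertCreEed line, whose Cre is driven by the serotonin transporter gene. Eed is a core PRC2 subunit. Neurons were sorted from adult midbrain and sequenced as bulk Smart-seq2 libraries at 4 and 8 months of age. The mDA groups held 9 wt and 10 PRC2 mutant libraries at 4 months, and 8 wt and 8 PRC2 mutant libraries at 8 months. Each of the 4 groups of 5HT neurons held 4 libraries. The mDA libraries belonged to 3 labelled sequencing batches, called sets here, and the 16 libraries of 5HT neurons all to set 1. At 8 months set 3 held 2 wt mDA libraries and no mutants. The main fit estimated the genotype effect in mDA within sets. These 2 libraries therefore count in the wt ranges and medians at 8 months but not in that effect. Cell type and mouse line cannot be told apart in any comparison of mDA with 5HT. The comparison of wt mDA with wt 5HT did not separate the sequencing set from them either, since its fit had no term for set. Wt libraries of both types carried the label of set 1.

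The libraries held 1644460 to 12250492 counts, so that 3 counts were worth 0.238 to 1.86 CPM (a library's counts scaled to a common total). CPM here is scaled by TMM library sizes over all 51 libraries. Eed, given as a check of the labels, was at 8.38 to 16.9 CPM in the mDA wt and 9.07 to 37.2 CPM in the mDA mutants at 8 months, and at 11.4 to 15.8 and 13.3 to 25.7 CPM in 5HT. Its row covers the whole gene, the labels do not name the deleted part, and its level therefore does not check the deletion. "Mutant" below means a library labelled PRC2 mutant. Th and Slc6a3, defining genes of dopaminergic neurons, had medians of 1710 and 2930 CPM in the mDA wt at 8 months and 16.6 and 21.8 CPM in the 5HT wt of that age. Tph2 and Slc6a4, defining genes of serotonergic neurons, had medians of 2730 and 2630 CPM in the 5HT wt at 8 months and 3.11 and 1.82 CPM in the mDA wt.

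A nerve terminal releases transmitter where vesicles dock at the active zone. Large scaffold proteins (bassoon, piccolo, ELKS and RIM proteins) hold vesicles and calcium channels together there, and UNC13 proteins prime the vesicles. Syntaxin, SNAP25 and synaptobrevin (VAMP) then assemble into the SNARE complex that fuses the membranes, with complexins bound to the complex and synaptotagmins as calcium sensors. Synapsins, the tetraspan proteins synaptophysin and synaptogyrin, SV2 proteins and RAB3 sit on the vesicle itself, and dynamin and amphiphysin take membrane back after fusion.

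The promoters of 4 members are shown because these genes carry the main results, 3 for mDA mutants and 1 for 5HT mutants. Each is the 250 bases before an annotated RefSeq start in GRCm38.p6, written 5′ to 3′ on the gene's strand. Every CG is in capitals, since Polycomb targets in mammals are typically rich in CpG. In Cplx1 and Syp the window ends where the gene begins. In Erc2 and Rimbp2 it runs past the outermost start of the gene given below, so part of it lies inside the gene.
Cplx1, chr5:108550028-108550277, minus strand: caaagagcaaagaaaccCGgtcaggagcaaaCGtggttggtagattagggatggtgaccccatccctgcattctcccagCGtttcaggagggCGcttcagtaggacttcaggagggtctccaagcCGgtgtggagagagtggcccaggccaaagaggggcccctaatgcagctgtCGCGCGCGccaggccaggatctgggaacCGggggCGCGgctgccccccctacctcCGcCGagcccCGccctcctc
Erc2, chr14:27622157-27622406, plus strand: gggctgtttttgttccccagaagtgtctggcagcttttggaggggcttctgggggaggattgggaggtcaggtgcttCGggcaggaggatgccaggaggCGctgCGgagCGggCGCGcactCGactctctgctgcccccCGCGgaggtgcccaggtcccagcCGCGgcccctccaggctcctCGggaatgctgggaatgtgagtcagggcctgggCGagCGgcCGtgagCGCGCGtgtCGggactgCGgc
Syp, chrX:7638330-7638579, plus strand: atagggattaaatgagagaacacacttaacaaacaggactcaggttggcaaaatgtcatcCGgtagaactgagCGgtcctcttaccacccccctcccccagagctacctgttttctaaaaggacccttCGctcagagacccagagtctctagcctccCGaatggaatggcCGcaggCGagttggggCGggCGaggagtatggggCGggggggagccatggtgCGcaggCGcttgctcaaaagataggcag
Rimbp2, chr5:128953487-128953736, minus strand: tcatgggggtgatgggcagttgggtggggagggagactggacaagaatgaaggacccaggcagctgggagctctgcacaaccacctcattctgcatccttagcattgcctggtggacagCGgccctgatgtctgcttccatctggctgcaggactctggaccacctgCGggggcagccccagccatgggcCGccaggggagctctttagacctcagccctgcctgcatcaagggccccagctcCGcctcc
These windows hold 15 CG in Cplx1, 20 in Erc2, 11 in Syp and 4 in Rimbp2. Across the 32851 windows of the RefSeq table the median was 6, with quartiles of 2 and 16. Across the 48 windows matched to 38 of the 48 members it was 12, with quartiles of 7 and 20. In the share of all windows that hold fewer CG, Cplx1 stood at 72.7%, Erc2 at 82.1%, Syp at 64.4% and Rimbp2 at 37.8%.

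Per kilobase of transcript, Snap25, the SNARE protein of the plasma membrane, had the highest mean of the 49 rows in each of the 8 groups, from 487 ± 69.5 CPM per kb (SD, n = 8) in mDA mutants at 8 months to 647 CPM per kb (n = 4, lowest 510.0 and highest 766) in 5HT wt at 8 months. In mDA wt the row with the second highest mean was Cplx1, with 310 ± 106 CPM per kb (SD, n = 9) at 4 months and 316 ± 130 CPM per kb (SD, n = 8) at 8 months. Cplx1 encodes complexin 1, a small protein that binds the assembled SNARE complex. In the 5HT wt it ranked 11, with 101 ± 46.6 CPM per kb (SD, n = 4) and 116 ± 9.37 CPM per kb (SD, n = 4). In mDA mutants at 8 months it was at 139 ± 29.6 CPM per kb (SD, n = 8) and ranked 8, while Syp, which encodes the tetraspan vesicle protein synaptophysin, ranked 2 with 310 ± 44.8 CPM per kb (SD, n = 8). At the low end, the row with the lowest mean was Rims4, a short RIM family member, in 7 of the 8 groups, and Cplx3, complexin 3, in the 5HT wt at 4 months. Rims4 reached at most 3.35 CPM in any library and was left out of every fit but that of all 51 libraries. Cplx3 reached 21.5 CPM in 1 mDA mutant library at 4 months, with a group median of 1.75 CPM, and did not pass the filter on low counts in the 5HT fits or in the fits of age in wt. Doc2b, a calcium-binding C2-domain protein, and Syt2, a fast synaptotagmin, were among the 3 lowest rows in mDA groups, and Sv2c was among the 3 lowest in each group of 5HT neurons.

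The wt neurons of the 2 types differed in several paralogs of the release machinery. In the comparison of wt mDA with wt 5HT over 25 libraries, 10 of 48 rows tested (20.8%) were higher in mDA and 9 (18.8%) in 5HT by edgeR's quasi-likelihood test with a Benjamini-Hochberg adjusted p under 0.05. Of all 16178 genes tested, 11.3% were called higher in mDA and 10.4% in 5HT. The median log2 difference of the members, mDA minus 5HT, was -0.11.

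Sv2c, the SV2 isoform known from the basal ganglia and dopaminergic neurons, was higher in mDA, with a log2 difference of 3.99 and an SE of 0.34 (adjusted p = 2.33e-11). Its wt values were 45.5 to 153 CPM in mDA and 1.62 to 4.25 CPM in 5HT at 4 months, and 37.1 to 148 CPM in mDA and 4.20 to 21.2 CPM in 5HT at 8 months. No mDA wt library fell to the level of a 5HT wt library. Syt7, a high-affinity calcium sensor, was higher in mDA by 2.30 (SE 0.15, adjusted p = 3.88e-14), with 188.2 to 295.3 CPM against 29.8 to 39.4 CPM at 8 months. The other 4 rows with the smallest p on that side were Rph3a, the RAB3 effector rabphilin (1.38, adjusted p = 1.23e-10), the scaffold gene Bsn, bassoon (1.09, adjusted p = 5.55e-08), Erc2, the scaffold protein ELKS2 (1.26, adjusted p = 2.83e-07), and Cplx1 (1.58, adjusted p = 8.83e-07). Rab3c, a vesicle GTPase, Rims1..1, Dnm1, dynamin 1, and Amph, amphiphysin, completed the list, at 1.42, 0.50, 0.46 and 0.38.

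On the 5HT side stood Rimbp2, a RIM-binding protein that links RIMs to calcium channels (-1.95, SE 0.12, adjusted p = 2.68e-15). It had 162.7 to 225.7 CPM in the 5HT wt and 37.6 to 57.8 CPM in the mDA wt at 8 months. Cplx2, complexin 2, was lower in mDA by the same test (-1.19, SE 0.14, adjusted p = 1.59e-08), the opposite direction to Cplx1. The target-membrane SNARE gene Stx1a (-0.88, adjusted p = 3.84e-06), the synapsin gene Syn2 (-0.78, adjusted p = 0.000445), the vesicle SNARE gene Vamp1 (-0.53, adjusted p = 0.0037) and the priming factor gene Unc13a (-0.52, adjusted p = 0.00444) were likewise higher in 5HT. The remaining 3 called rows were Pclo, Rab3a and Sncb, between -0.53 and -0.43. Among the 19 called rows, 14 were called with each of the 25 libraries left out in turn. The call was lost without 1 library in 18 cases for Rab3a, 14 for Rims1..1, 9 for Sncb, 4 for Amph (D942, S382, S367 and S373) and 3 for Pclo (S382, S385 and S369, adjusted p up to 0.189).

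**Figure D1:**
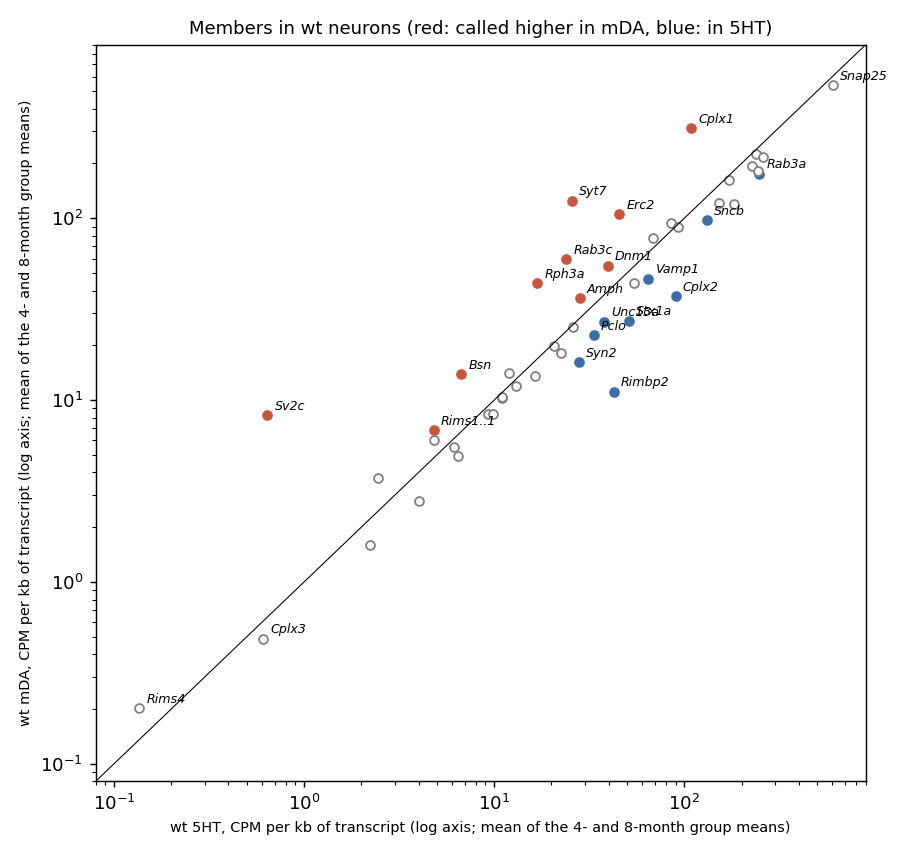
Mean level of each of the 49 member rows in wt mDA (vertical axis) against wt 5HT neurons (horizontal axis), in CPM per kilobase of transcript on log axes, as the mean of the 4-month and 8-month group means; the line marks equal levels. Filled points passed the test, with Sv2c and Syt7 far above the line, Rimbp2 below it and Snap25 the highest in both neuron types.

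Age in wt neurons gave no call among members. With edgeR, 0 of 47 member rows were called higher and 0 lower at 8 than at 4 months in mDA, and 0 and 0 of 47 in 5HT. Of all genes 0% were called in either direction, in 13645 genes of mDA and in 13568 genes of 5HT. At an unadjusted p under 0.05 there were 9 member rows in mDA and 5 in 5HT, against 1518 of 13645 and 691 of 13568 genes. DESeq2 called 4 members higher and 0 lower in mDA, where it gave no adjusted p for 10 rows, and 0 in 5HT. Without wt animal D833, 1 member was called higher in mDA by edgeR.

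In mDA mutants at 8 months, part of the active zone scaffold and Cplx1 were lower than in wt, while Syp was higher. Cplx1 stood at 0.498 of the wt level, Erc2 at 0.568, and Rims1..1 and Rims1..2 at 0.565 and 0.478. Bsn (0.677), the priming factor gene Unc13b (0.609) and Sv2c (0.515) were lower too, and Syp was 1.66 times the wt level. Of 48 member rows tested, 7 (14.6%) were called lower and 1 (2.08%) higher, against 1.88% lower and 2.44% higher among all 15425 genes. An unadjusted p under 0.05 was found for 20 of the 48 rows, the 8 called rows included, and for 2697 of all 15425 genes. The median log2 fold change of the 48 was 0.04. In bulk samples, fewer cells of a type and less RNA per cell cannot be told apart.

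Cplx1 (chr5:108518554-108550027, GRCm38) had 376 to 1190 CPM with a median of 624 in the 8 wt libraries and 215 to 396 CPM with a median of 323 in the 8 mutants. In 7 of the 8 mutants it was below the lowest wt library. The log2 fold change was -1.01 (SE 0.18, adjusted p = 0.000148). Within set 1 alone it was -0.86 (adjusted p = 0.00416) and within set 2 alone -1.42 (adjusted p = 0.00918). Its paralog Cplx2 had 130.3 to 296.4 CPM in wt and 201 to 288 CPM in mutants, and its log2 fold change of 0.43 (SE 0.15) did not pass the test (adjusted p = 0.0928).

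Erc2 (chr14:27622275-28478537) had 525 to 776 CPM in wt, with a median of 680, and 298 to 512 CPM in mutants, with a median of 414. No mutant library reached the lowest wt library. The log2 fold change was -0.82 (SE 0.16, adjusted p = 0.000883), with -0.62 (adjusted p = 0.0129) within set 1 and -0.98 (adjusted p = 0.0174) within set 2. Its paralog Erc1 had a log2 fold change that did not pass the test. Cplx1 and Erc2 were called with each of the 16 libraries left out in turn.

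The RIM, bassoon and UNC13 genes were lower too. Rims1 (chr1:22285972-22806158), the central RIM scaffold gene, had 28.9 to 63.1 CPM in wt and 22.4 to 32.5 CPM in mutants in the row Rims1..1 (-0.82, SE 0.21, adjusted p = 0.0164). In Rims1..2 it had 20.2 to 90.7 CPM in wt and 14.5 to 26.5 CPM in mutants (-1.06, SE 0.26, adjusted p = 0.00853). In each row 7 of 8 wt libraries were above the highest mutant. Bsn (chr9:108096022-108190419) had 205 to 342 CPM in wt and 141.4 to 213.7 CPM in mutants, with 6 of 8 mutants below the lowest wt library (-0.56, SE 0.15, adjusted p = 0.0191). Unc13b (chr4:43046193-43264873) had 76.4 to 136 CPM in wt and 24.6 to 89.3 CPM in mutants, with 4 of 8 mutants below the lowest wt library (-0.71, SE 0.21, adjusted p = 0.0348).

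Within set 1, with 4 wt and 4 mutants, Rims1..1, Rims1..2 and Bsn were at -1.05, -1.20 and -0.59, with adjusted p of 0.0152, 0.0097 and 0.0303. Within set 2, with 2 wt and 4 mutants, they were at -0.31, -0.66 and -0.29, with adjusted p of 0.938, 0.76 and 0.765. Unc13b was at -0.43 (adjusted p = 0.216) and -0.77 (adjusted p = 0.522). The call was lost for Bsn without wt animal C51 (adjusted p = 0.0614), and for Unc13b without any 1 of 6 libraries (wt C51, D107 and D147, mutants D265, D282 and D170, adjusted p up to 0.105). For Rims1..1 the adjusted p was 0.05 without mutant D265. In a fit with no term for sex the calls of Bsn, Rims1..1 and Unc13b were lost, with adjusted p of 0.193, 0.072 and 0.138. In a fit of only the wt and mutants of this age the calls of Rims1..1, Rims1..2 and Unc13b were lost, with adjusted p of 0.0721, 0.0936 and 0.149. In set 1 at this age 3 of 4 mutants were female and 3 of 4 wt were male. Pclo, which encodes piccolo, the scaffold protein related to bassoon, had 343 to 784 CPM in wt and 301.8 to 466.3 CPM in mutants, and its log2 fold change of -0.52 (SE 0.17) missed the threshold (adjusted p = 0.0791). Rims2 did too, at -0.42 (SE 0.18, adjusted p = 0.191).

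Among vesicle proteins, Sv2c (chr13:95959443-96132577) had 37.1 to 148 CPM in wt, with a median of 49.6, and 16.98 to 36.53 CPM in mutants, with a median of 28.5. The groups did not overlap, and the log2 fold change was -0.96 (SE 0.24, adjusted p = 0.0139). Within set 1 it was -0.64 (adjusted p = 0.247) and within set 2 -1.56 (adjusted p = 0.0651), and without wt animal D147 the adjusted p was 0.0534. Sv2a and Sv2b, the other SV2 genes, were at 0.20 and 0.55 and did not pass the test (adjusted p = 0.427 and 0.105).

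Syp (chrX:7638580-7653256) had 238.3 to 756.6 CPM in wt, with a median of 448, and 589 to 991 CPM in mutants, with a median of 805. In 6 of 8 mutants it was above the highest wt library, and the log2 fold change was 0.73 (SE 0.20, adjusted p = 0.0232). Within set 1 it was 0.77 (adjusted p = 0.00301) and within set 2 0.20 (adjusted p = 0.843). The call was lost without any 1 of 4 libraries (wt C47 and C51, mutants D265 and D282, adjusted p up to 0.0652), in a fit with no term for sex (0.51, adjusted p = 0.37), and in a fit of only these 2 groups (0.52, adjusted p = 0.0636). Of its exon bases 16.8% overlap exons of other annotated genes, and the use of strand in the counting is not given. Reads of such genes therefore cannot be told apart from those of Syp there.

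The remaining roles gave no call in mDA at 8 months. The SNARE genes Snap25, Stx1a, Vamp1 and Vamp2 and Nsf, the ATPase that takes SNARE complexes apart, lay between -0.07 and 0.52. The 7 synaptotagmin and Doc2 genes lay between -0.72 and 0.59, and the 3 synapsin genes between 0.04 and 0.50. RAB3 genes with Rph3a lay between -0.52 and 0.47, Dnm1 and Amph between -0.10 and 0.05, and the synuclein genes Sncb and Sncg between -0.03 and 0.33. The summed level of all members was 9288 to 13860 CPM in wt and 9754 to 11790 CPM in mutants, so the groups overlapped for the module as a whole.

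**Figure D2:**
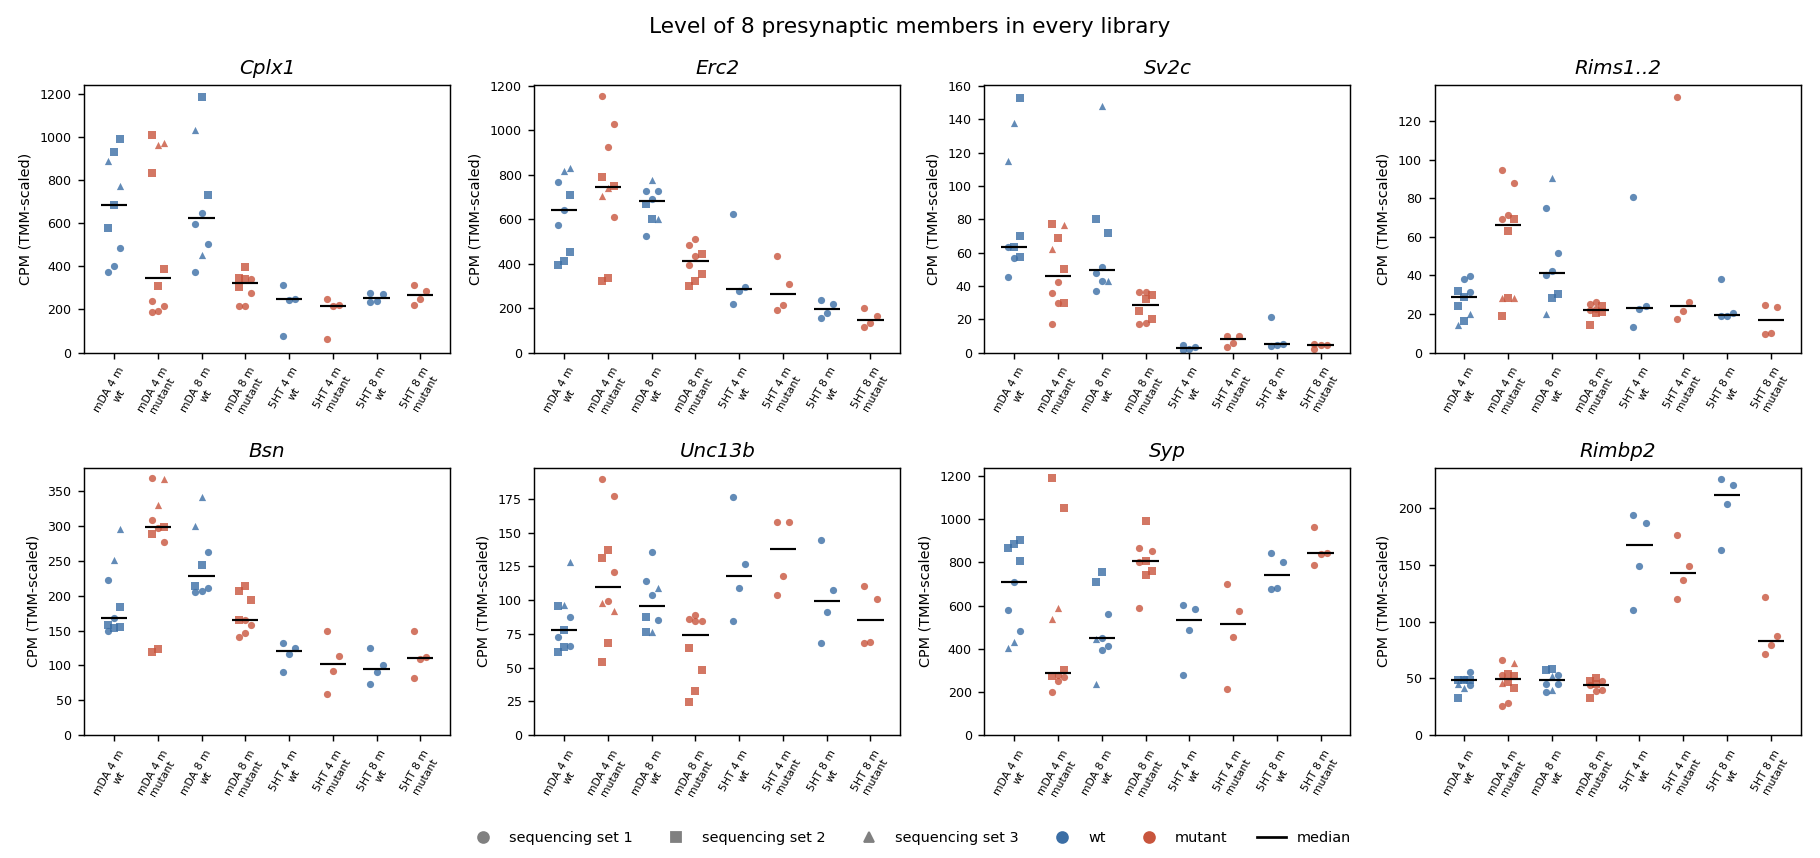
CPM (vertical axes, starting at 0) of 8 member rows in every library of the 8 groups; circles, squares and triangles are sequencing sets 1, 2 and 3, blue is wt, red is mutant, and the line is the group median. Erc2 and Sv2c of mDA mutants at 8 months lie below each wt library of that age, Syp lies mostly above, and Rimbp2 of 5HT mutants at 8 months lies below each 5HT wt library of that age.

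Markers of the sorted neurons and of other neurons moved with these values. In mDA mutants at 8 months Th was at -1.22 (SE 0.12, adjusted p = 2.17e-09) and Slc6a3 at -1.40 (SE 0.14, adjusted p = 8.5e-10). Gad1, the GABA-synthesizing enzyme, was at 2.76 (SE 0.23, adjusted p = 6.85e-12), and Slc32a1, the vesicular GABA transporter, at 1.88 (adjusted p = 3.53e-07). The summed level of 5 GABA and glycine neuron markers was 677 to 973 CPM in mutants and 246 to 494 CPM in wt, and that of 4 mDA identity genes 2820 to 3770 and 4910 to 9100 CPM. Of the markers in these lists 0 were at 0 in any group. Of 10 astrocyte markers the sum was 533 to 2380 CPM in mutants, with animal D176 the highest, and 386 to 731 CPM in wt. Of 8 endothelial and mural cell markers it was 5.19 to 627 CPM in mutants and 4.87 to 41.9 CPM in wt. The medians were 22.5 and 14.2 CPM. Of 3 glutamate neuron markers the sum was 89.3 to 154 CPM in mutants and 61.7 to 114 CPM in wt. Of 9 oligodendrocyte markers it was 458 to 1350 and 485 to 967 CPM. The part of these markers in the member results was not tested. Without D176 none of the member calls at 8 months was lost.

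At 4 months the mDA mutants showed another picture. Bsn and Rims1..2 were higher than in wt and Syngr3, which encodes the vesicle tetraspan protein synaptogyrin 3, was lower. Of 48 rows, 2 (4.17%) were called higher and 1 (2.08%) lower, against 0.577% and 0.596% of all 15425 genes. The median log2 fold change of the members was -0.02. An unadjusted p under 0.05 was found for 14 rows and for 2238 of all 15425 genes.

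Bsn had 150.0 to 295.7 CPM in wt, with a median of 169, and 119 to 368 CPM in mutants, with a median of 298. In 6 of 10 mutants it was above the highest wt library and in 2 below the lowest, and the log2 fold change was 0.48 (SE 0.12, adjusted p = 0.0418). Rims1..2 had 14.3 to 40.0 CPM in wt and 18.9 to 94.7 CPM in mutants, with 6 of 10 mutants above the highest wt library (0.87, SE 0.21, adjusted p = 0.0329). The other Rims1 row was at 15.7 to 65.3 CPM in mutants against 23.6 to 51.5 CPM in wt and was not called. Syngr3 (chr17:24685092-24689949) had 244 to 607 CPM in wt and 62.1 to 666 CPM in mutants, with 5 of 10 mutants below the lowest wt library (-0.67, SE 0.16, adjusted p = 0.0266). For Bsn and Syngr3 the mutants spread both above and below the wt range. Leaving out 1 of the 19 libraries ended the call in 11 cases for Bsn and for Rims1..2 and in 7 for Syngr3, among them wt D296, C240, C241 and D942 and mutants D186, D237 and D238 for each row.

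These calls were lost without the 4 mutants of set 1, all female, which stood beside 3 male wt animals in that set. With these mutants left out, 0 members were called higher and 0 lower at 4 months, against 19 and 1 of all 15744 genes. Bsn was then at 0.44 (adjusted p = 0.46), Rims1..2 at 0.88 (adjusted p = 0.325) and Syngr3 at -0.35 (adjusted p = 0.737). With all mutants they were at 0.48, 0.87 and -0.67, so the estimates of Bsn and Rims1..2 moved little. Within set 1 alone the values were 0.93, 1.28 and -1.69, with adjusted p of 0.000694, 0.001 and 9.11e-06. That fit could hold no term for sex, so its values cannot be assigned to genotype rather than sex. Within set 2 alone they were 0.27, 0.70 and -0.50, with adjusted p of 0.837, 0.738 and 0.766. Set 2 held both sexes in each genotype at this age. In set 3 the 2 wt were female and the 2 mutants male. The main fit took sex into account by a term shared by both ages. Pclo (0.52, adjusted p = 0.057) and Syt11, a synaptotagmin that does not bind calcium (-0.42, adjusted p = 0.0594), were just outside the threshold. Cplx1 was at -0.40 (SE 0.15, adjusted p = 0.164), with 191 to 1010 CPM in mutants and 373.3 to 991.6 CPM in wt, and Sv2c was at -0.67 (SE 0.21, adjusted p = 0.0924).

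The genotype effect in mDA differed between the ages for 12 member rows. Tested as a contrast of the effects, 7 of 48 rows (14.6%) had a lower effect at 8 than at 4 months and 5 (10.4%) a higher one, against 2.35% lower and 3.76% higher among all 15425 genes. The 7 lower rows were 6 scaffold rows and Unc13b. Rims1..2 differed by -1.93 (SE 0.33, adjusted p = 0.000223), Bsn by -1.04 (SE 0.19, adjusted p = 0.000687), Pclo by -1.04 (SE 0.22, adjusted p = 0.00389), and Erc2 by -0.97 (SE 0.21, adjusted p = 0.00407). Unc13b, Rims2 and Rims1..1 differed by -1.13, -0.83 and -0.91. The 5 higher rows encode membrane proteins. Syp differed by 1.17 (SE 0.26, adjusted p = 0.00483), Syngr3 by 1.02 (SE 0.25, adjusted p = 0.0119), Syt11 by 0.74 (SE 0.18, adjusted p = 0.012), Vamp2 by 0.89 (SE 0.24, adjusted p = 0.0209) and Vamp1 by 0.66 (SE 0.21, adjusted p = 0.0447). For Cplx1 the difference of -0.61 (SE 0.23) did not pass the test (adjusted p = 0.105), so its lower level at 8 months was not shown to be a change from 4 months. Leaving out 1 of the 35 libraries ended the call of Vamp1 in 24 cases (adjusted p up to 0.104), of Rims1..1 in 8 (wt C47, C51, D296 and C240, mutants D265, D282, D237 and D238, adjusted p up to 0.0752) and of Rims2 without wt C47 (adjusted p = 0.0555). With no term for sex the 5 higher rows, Rims1..1 and Rims2 were not called, with adjusted p from 0.111 for Rims2 to 0.282 for Syngr3.

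Without the 4 mutants of set 1 at 4 months, 2 of the 12 rows passed the test, Rims1..2 at -1.95 (adjusted p = 0.0119) and Bsn at -0.99 (adjusted p = 0.0352). The other 10 had the same sign as before, among them Erc2 at -0.93 (adjusted p = 0.0606) and Syp at 0.98 (adjusted p = 0.162).

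**Figure D3:**
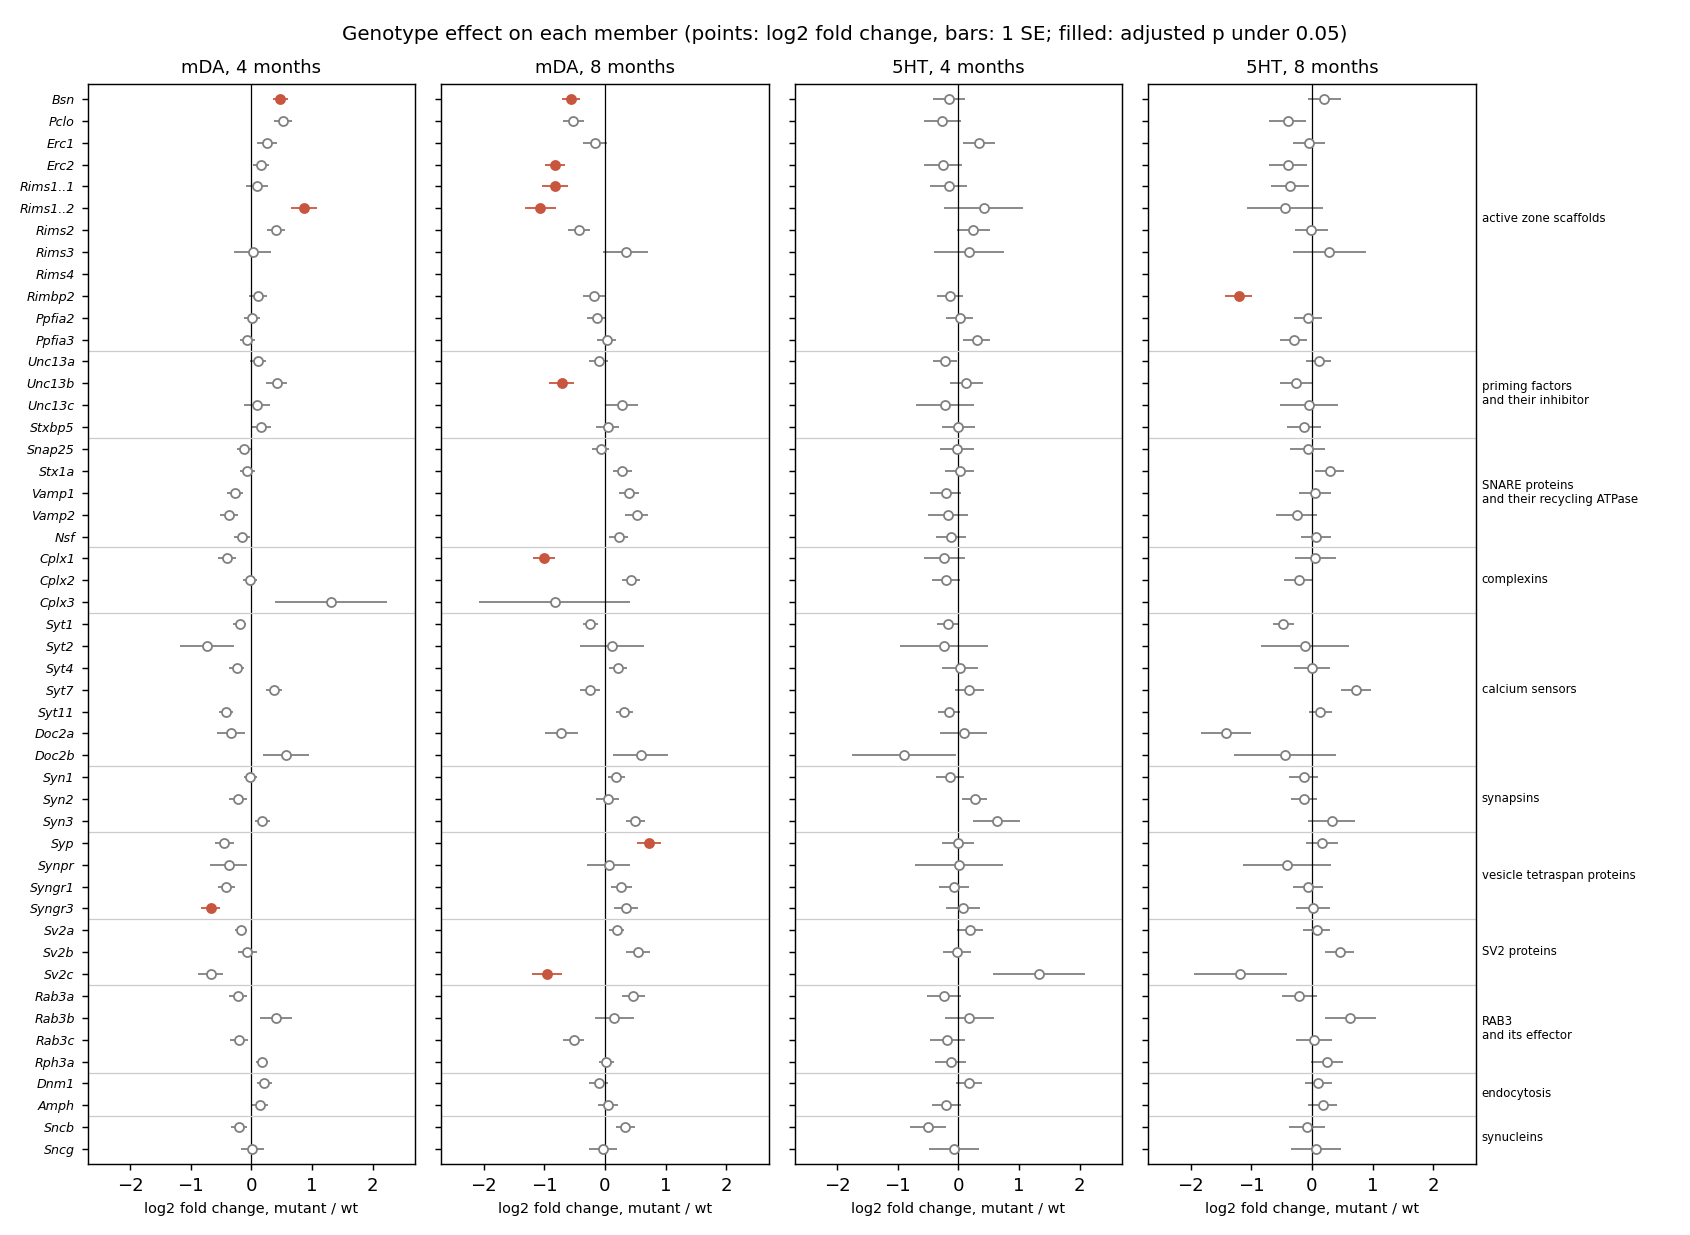
Log2 fold change of mutant over wt (horizontal axes) of each member row, ordered by role, in mDA and 5HT neurons at 4 and 8 months; bars are 1 SE and filled points have an adjusted p under 0.05. Scaffold rows such as Bsn and Rims1..2 lie right of 0 in mDA at 4 months and left of 0 at 8 months, and in 5HT the filled point is Rimbp2 at 8 months.

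In mDA most members on long transcripts had effects of opposite sign at the 2 ages, and the libraries differed in how their values depended on transcript length. The slope of a library's log2 CPM, relative to the mean over libraries, per doubling of transcript length over 10455 genes was 0.228 to 0.296 in the 4 set 1 mutants and 0.017 to 0.095 in the 3 set 1 wt libraries at 4 months. These mutants were also the shallower libraries, with 2151324 to 2898290 counts against 3645627 to 4551179 in these wt. In set 2 at 4 months the slope was 0.186 and 0.155 in the female mutants D237 and D238. It was -0.193 and -0.157 in the male mutants C213 and C214, and -0.129 to -0.066 in the wt. In set 3 it was 0.012 to 0.027 in mutants and 0.065 to 0.075 in wt. The parts of depth and sex in the slopes were not tested. At 8 months the slope was -0.048 to 0.082 in mutants and -0.049 to 0.228 in wt, with medians of 0.004 and 0.104. Of 11 member rows on transcripts over 6 kb, 9 had a positive log2 fold change at 4 months, with a median of 0.10, and 1 did at 8 months, with a median of -0.52. Over all genes of that length the medians were 0.08 and -0.08. Bsn, Pclo, Sv2c, Rims1 and Erc2, at 15.9, 20.1, 9.10, 6.18 to 6.45 and 6.08 kb, are among these long transcripts, while Cplx1 (2.19 kb), Syp (2.59 kb) and Syngr3 (1.96 kb) are short.

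The slopes were also taken out by offsets for length, an alternative chosen after the data were seen. All 8 rows called in mDA at 8 months were called again. Cplx1 was then at -1.06 (adjusted p = 3.78e-06), Erc2 at -0.77 (adjusted p = 0.000267) and Bsn at -0.40 (adjusted p = 0.0269). At 4 months 1 row was called higher and 1 lower, against 98 and 38 of all 15336 genes. Bsn at 0.30 was no longer called (adjusted p = 0.117). For the difference between the ages 9 rows were then called lower and 4 higher, against 407 and 414 of all genes. Of the 12 rows named above Vamp1 was the 1 not called (0.57, adjusted p = 0.0741). Rims1..2 was at -1.83 (adjusted p = 0.000209), Bsn at -0.70 (adjusted p = 0.00296), Pclo at -0.64 (adjusted p = 0.0102) and Syp at 1.05 (adjusted p = 0.00564).

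**Figure D4:**
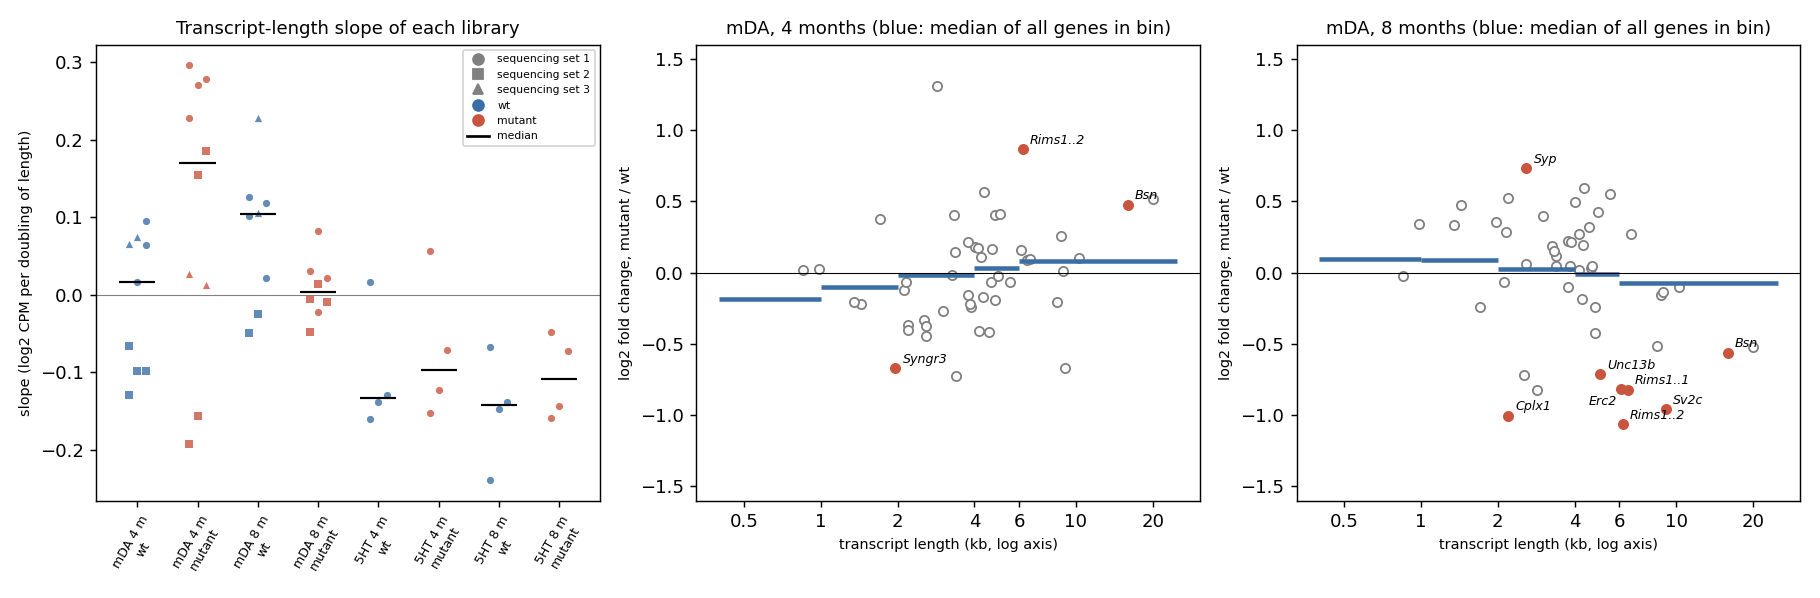
Left, slope of each library's log2 CPM per doubling of transcript length in the 8 groups (symbols are sequencing sets, lines medians); middle and right, log2 fold change of each member row in mDA at 4 and 8 months against transcript length in kb on a log axis, with blue lines at the median of all genes in each length bin. The 4 set 1 mutants at 4 months lie at 0.228 to 0.296, above the other libraries of that age, and at 8 months 10 of the 11 members above 6 kb lie below 0.

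In 5HT mutants the release machinery gave 1 call, Rimbp2 at 8 months. Of 47 rows, 0 were called higher and 1 (2.13%) lower at that age, against 0.249% and 0.147% of all 15633 genes. Rimbp2 (chr5:128757788-128953644) had 162.7, 203.4, 220.1 and 225.7 CPM in the 4 wt libraries and 71.6, 79.3, 87.4 and 121 CPM in the 4 mutants. The groups did not overlap, and the log2 fold change was -1.21 (SE 0.22, adjusted p = 0.00885), or 0.434 of the wt level. The call was lost without wt animal S385 or mutant S446 or S447, with an adjusted p of at most 0.0777. In mDA at 8 months Rimbp2 had 32.7 to 50.2 CPM in mutants and 37.6 to 57.8 CPM in wt and was not called.

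Doc2a, a C2-domain protein of spontaneous and asynchronous release, had 24.7, 26.2, 31.6 and 50.6 CPM in 5HT wt and 9.19, 10.55, 13.1 and 13.3 CPM in 5HT mutants at 8 months. The groups did not overlap, yet its log2 fold change of -1.42 (SE 0.41) did not pass the test over all genes (adjusted p = 0.225). Of its exon bases 39.4% overlap exons of other annotated genes, most of all Ino80e, so its value is uncertain. Syt7 was at 0.72 (SE 0.25, adjusted p = 0.465) and Syt1, the fast calcium sensor, at -0.47 (SE 0.18, adjusted p = 0.624). The 4 rows with an unadjusted p under 0.05 were Rimbp2, Doc2a, Syt7 and Syt1, against 766 of all 15633 genes. The median log2 fold change of the members was -0.05.

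The genes called in mDA were not called in 5HT at 8 months. Cplx1 had 234, 239, 270 and 274 CPM in wt and 219, 247, 287 and 312 CPM in mutants. Erc2 had 154.0, 176.2, 218.7 and 234.6 CPM in wt and 117, 131, 165 and 199 CPM in mutants. Syp had 679, 680, 801 and 845 CPM in wt and 787, 839, 844 and 964 CPM in mutants. For each the groups overlapped. The difference between the cell types was tested itself over 51 libraries, and of 49 rows 0 were called higher and 0 lower, against 0.0544% and 0.125% of all 18386 genes. There were 7 rows with an unadjusted p under 0.05, against 1413 of all genes, and DESeq2 called 1 row higher and 0 lower. For Cplx1 the effect in mDA minus that in 5HT was -1.03 (SE 0.39, adjusted p = 0.476) and for Rimbp2 1.04 (SE 0.28, adjusted p = 0.137). A response particular to a neuron type was therefore not shown for any member.

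The markers moved in these 5HT libraries too. At 8 months Tph2 was at -2.76 (SE 0.25, adjusted p = 9.79e-07) and Slc6a4 at -2.29 (SE 0.17, adjusted p = 4.72e-08). The summed GABA and glycine neuron markers were 661 to 757 CPM in mutants and 268 to 392 CPM in wt, and their part in the value of Rimbp2 was not tested.

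In 5HT at 4 months 0 of 47 rows were called higher and 0 lower by edgeR, 0 had an unadjusted p under 0.05, and DESeq2 called 0. Among all 15633 genes, 0.0128% were called higher and 0% lower. The difference between the 5HT effects at 8 and 4 months was called for 0 of 47 rows in either direction and for 0 by DESeq2. Of all genes 0% were called higher and 0.0128% lower by edgeR. An unadjusted p under 0.05 was found for 3 rows and for 620 of the 15633 genes. For Rimbp2 this difference was -1.07 (SE 0.30, adjusted p = 0.606), with 110 to 194 CPM in wt and 119.5 to 176.3 CPM in mutants at 4 months.

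A further list of 91 rows of other synaptic genes (SNARE and priming factors, scaffolds and adhesion proteins, endocytosis and others) gave 6 calls at 8 months in mDA. Of 89 tested, 4 (4.49%) were called higher and 2 (2.25%) lower, against 2.44% and 1.88% of all genes tested, with a median of 0.07. The lower share is near that of all genes. The higher ones were Nlgn3, an adhesion protein of the postsynaptic side (0.67, adjusted p = 0.0138), and Hspa8, the chaperone that uncoats clathrin vesicles (0.76, adjusted p = 0.0205). Stx12, an endosomal syntaxin (0.64, adjusted p = 0.0357), and Lin7c, a scaffold protein (0.78, adjusted p = 0.0391), were higher too. The lower ones were Cadps2, a priming factor of dense-core vesicles (-0.83, SE 0.16, adjusted p = 0.0007), and Ptprd, a presynaptic adhesion receptor (-0.71, SE 0.18, adjusted p = 0.0122). In mDA at 4 months 0 of 89 were called in either direction by edgeR, against 0.577% higher and 0.596% lower of all genes. An unadjusted p under 0.05 was found for 20, against 2238 of all 15425 genes. DESeq2 called 2 higher and 0 lower, against 206 and 146 of all genes. In 5HT 0 of 88 were called at either age by edgeR and 0 by DESeq2, against at most 0.249% of all genes by edgeR in either direction. An unadjusted p under 0.05 was found for 6 at 4 months and 0 at 8 months, against 1001 and 766 of all 15633 genes.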

How the data were processed

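The labels' protocols name FACS and Smart-seq2. Gene counts deposited by the authors, raw and whole, cover 51 libraries in 1 table. The submitters' processing notes name STAR 2.7.0a and the build mm10 (GRCm38). No source used here gives the counter or says whether it used strand. PCR reads without molecular tags are not independent molecules, so floors cover counting error only. The mCherry row entered neither library sizes nor tests and held at most 0.00294% of the counts in any library.

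Groups, age, set and sex come from the labels, and replicates are separate animals. No 2 libraries of a group agreed within counting noise (chi-square per degree of freedom of at least 6.97). The main tests used edgeR 4.0.16 under R 4.3.3 (TMM scaling, filterByExpr with a minimum count of 10, robust quasi-likelihood fit, Benjamini-Hochberg adjustment over all genes tested, calls at an adjusted p under 0.05). The 35 mDA libraries were fitted together with terms for set within age and for sex, and the 16 libraries of 5HT neurons with a term for sex. The difference between cell types used all 51 libraries. The comparison of wt cell types used the 25 wt libraries with a term for sex and none for set. SE is the absolute log2 fold change over the square root of F and is approximate. DESeq2 1.42.0, other scalings, no filter, other terms, single sets, each library left out and length offsets were tried as alternatives. Simulated counts with known changes were used to check the fits.

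Promoters, all from RefSeq for GRCm38.p6, were matched by symbol for 38 of 48 members. The last 30 bases of 39 of 48 full windows lay in a GENCODE transcript of the gene, which fits the strand as written. Gene coordinates are those of RefSeq, and transcript lengths and exon overlaps those of GENCODE, both for GRCm38. Rims1 was read from its 2 rows, and Tspoap1 of the further list under its older symbol Bzrap1.

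The members and lists were chosen with earlier results of these data known. Genes named are every member called in a genotype comparison or a difference of effects. Between wt cell types, up to 6 called members per side were named by smallest p. Up to 4 called genes per side of the further list were named too. So were members left out by the filter, the 3 highest and 3 lowest members per kilobase, their paralogs and the checks. Other rows called or near the threshold, with Doc2a, Syt7 and Syt1, were named after their values were seen.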

Additional observations from a re-analysis of the deposited data

Results flagged for a closer look

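In the mDA neurons 12 member rows had a genotype effect at 8 months that differed from that at 4 months by the test of the difference itself. The differences on the log2 scale were -1.04 for Bsn, -1.04 for Pclo, -0.97 for Erc2, -0.91 for Rims1..1, -1.93 for Rims1..2, -0.83 for Rims2 and -1.13 for Unc13b. They were 0.66 for Vamp1, 0.89 for Vamp2, 0.74 for Syt11, 1.17 for Syp and 1.02 for Syngr3. Leaving out the 4 set 1 mutants at 4 months left 2 of them past the threshold. With offsets for transcript length 11 of the 12 passed it, all but Vamp1 (adjusted p = 0.0741).

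Single libraries stood far from the others of their group in 8 of 120 groups of values of the 15 members named for a genotype result (6.67%), and chance flags about 1 in 20. In 5HT at 4 months, mutant S427 had 133 CPM of Rims1..2 (others 17.3 to 26.4), 1130 CPM of Pclo (494 to 589) and 135 CPM of Syngr3 (438 to 468). In the wt of that age, S369 had 80.5 CPM of Rims1..2 (13.5 to 24.2) and 1440 CPM of Pclo (612 to 698). The length slopes of S427 and S369, 0.057 and 0.017, were the highest of their groups. In 5HT wt at 8 months, S381 had 38.3 CPM of Rims1..2 (18.9 to 20.3) and 21.2 CPM of Sv2c (4.20 to 5.20). In mDA wt at 8 months, D833 had 148 CPM of Sv2c (37.1 to 80.0).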

How the results depend on the processing

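Counts of called members moved with the processing as follows. In mDA at 4 months the 2 higher rows became 3 with DESeq2, RLE or upper quartile scaling, 1 with no filter on low counts, 0 with no term for the set, 1 with the 2 groups alone, 1 with length offsets, 8 within set 1, 0 within set 2 and 0 without the 4 set 1 mutants. With 1 library left out at a time they were 0 to 4. The 1 lower row became 0 with no term for sex, 0 with no term for the set, 9 within set 1, 0 within set 2 and 0 without the set 1 mutants, and was 0 to 5 with 1 library left out. In mDA at 8 months the 1 higher row became 2 with DESeq2, 0 with no term for sex, 0 with the 2 groups alone, 2 with length offsets, 2 within set 1 and 0 within set 2, and was 0 to 2 with 1 library left out. The 7 lower rows became 4 with no term for sex, 4 with the 2 groups alone and 2 within set 2. In 5HT at 8 months the 1 lower row became 2 with the 2 groups alone and was 0 to 1 with 1 library left out. For the mDA effect at 8 minus 4 months the 5 higher rows became 0 with no term for sex, 2 with no term for the set and 0 without the set 1 mutants (4 to 9 with 1 library left out), and the 7 lower rows became 2 without the set 1 mutants. DESeq2 gave 1 higher row for mDA minus 5HT and 4 for age in mDA wt, where edgeR gave 0. The cause was not tested where a term, a tool or a scaling changed. In mDA at 4 months sex and genotype cannot be told apart within set 1 or within set 3. The fit of set 1 alone therefore had no term for sex. Set 3 was not fitted alone, and leaving out libraries was added for the wt comparisons and for mDA minus 5HT after the data were seen. In age of mDA wt, 0 higher rows became 0 to 1. Over all genes, the 89 higher and 92 lower calls in mDA at 4 months became 96 and 56 with RLE scaling, 118 and 48 with upper quartile scaling, 98 and 38 with length offsets, 206 and 146 with DESeq2, 674 and 828 within set 1 and 7 and 1 within set 2. For the difference between ages, 580 higher and 362 lower became 481 and 449 with RLE scaling, 449 and 477 with upper quartile scaling and 414 and 407 with length offsets. Values of called members with 1 library left out, 1088 in all, reversed in 0 cases and lost the call in 126, and the 331 other alternatives in 0 and 58. No paired analysis was possible because no number is shared between groups.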
